A study of Mus musculus with 7 samples.

Results

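The genes described here encode the enzymes and cofactors that write, maintain and remove cytosine methylation in DNA: Dnmt1, Dnmt3a, Dnmt3b, Dnmt3l, Uhrf1, Tet1, Tet2 and Tet3. Their RNA was followed in mouse embryonic stem cells by RIP-seq, in which RNA is precipitated together with a protein that an antibody recognises and is then sequenced. The antibody was raised against EZH2, which methylates histone H3 as part of Polycomb repressive complex 2, and the title of the series reports that it cross-reacts with SAFB, which binds RNA in the nucleus. The deposited count table gives reads per feature, a feature being an interval on 1 strand that the authors called on pooled wild-type precipitates. A feature was taken as a member when it overlapped the GENCODE M21 span of a listed gene (mouse assembly mm10) on the gene's strand. That rule found 185 of the 303889 features of the table, 116 exonic (at least 1 base in an exon) and 69 intronic. In all, 231168 features overlap a gene on its strand.

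The 7 libraries come from cells of a CAST/B6 male line with a recombinase-mediated cassette exchange (RMCE) site at Rosa26, grown in 15% serum and given doxycycline for 3 days in each group; what doxycycline induced is not stated. SAFB DKO, a double knockout in which Safb and the related Safb2 are both disrupted, has 2 libraries, from clones 13 and 4, which carry the same replicate number and were numbered here in the order of the labels. Knockout of Ezh2 (EZH2 KO) has 2 libraries, from clones 12 and 19. Wild type (WT) has 3 libraries, from the parental line and clones 20 and 44. Replicates are clones or the parental line, and the p-values measure the spread among them. SAFB DKO against WT asks which precipitated RNA depends on the SAFB proteins, and EZH2 KO against WT asks which depends on EZH2.

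In mammals DNMT3A and DNMT3B place methyl groups on cytosines that carried none, with DNMT3L as a partner that has no catalytic activity of its own. DNMT1 copies the pattern to the new strand after replication, guided by UHRF1, which binds hemimethylated DNA. The TET proteins oxidise 5-methylcytosine to 5-hydroxymethylcytosine and further products, the first step of active demethylation. Mouse embryonic stem cells are known for high Tet1 and Tet2, whereas Tet3 is best known from the oocyte and zygote. The coding region of each TET gene is unusual in holding a few very long exons.

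Total counts were 18738499 and 15812517 in SAFB DKO, 7050832 and 8353603 in EZH2 KO, and 19024702 to 21832539 in WT, so EZH2 KO values rest on fewer reads. The columns of the EZH2 KO libraries are named by another pattern than those of SAFB DKO and WT, which points to another sequencing run. If so, genotype and run cannot be told apart in any comparison with EZH2 KO. The targeted genes followed the labels. Safb exonic counts came to 1.41 and 0.592 CPM in SAFB DKO, 284 and 314 CPM in EZH2 KO, and 239, 245 and 117 CPM in WT. Safb2 came to 1.60 and 0.323 CPM, 178 and 215 CPM, and 111, 113 and 64.8 CPM in the same order. For both genes WT replicate 3 was the lowest library outside SAFB DKO. Ezh2 came to 0.601 and 0 CPM in EZH2 KO and at least 104 CPM in each other library. CPM here means edgeR's normalised counts, scaled to library size and composition. Of 12 embryonic stem cell markers, 11 had exonic counts; the single feature of Sox2 also overlaps another gene on the strand and was left out. Their summed level was 1971 to 2039 CPM in SAFB DKO, 1137 to 1256 CPM in EZH2 KO and 1433 to 1492 CPM in WT. Neural markers (Pax6, Sox1, Nes and Tubb3, with Sox1 and Tubb3 at 0 counts in each group) summed to 69.7 to 71.0 CPM in SAFB DKO, 103 to 120 CPM in EZH2 KO and 173 to 248 CPM in WT, and lists of 6 markers each for trophoblast (Elf5 at 0 in each group), primitive endoderm (Sox17 and Foxa2 at 0) and fibroblasts (Col1a2, Postn and Lum at 0) summed to at most 40.7 CPM in any library. What these differences contribute to the values below was not tested. Input RNA was not used here, so a level is precipitated RNA, not expression, and fewer cells of a type and less RNA per cell cannot be told apart.

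The RNA that follows is shown for 4 of the 6 long TET exons, whose values are described further on, beside the DNMT feature that is richest in the searched word. The word GAAGA, a purine-rich word of the kind described for SAFB binding, was searched on the RNA strand of coding sequence, with overlaps counted (GAAGAAGA holds 2), and its reverse complement TCTTC was counted as a comparison. Each stretch of 120 bases is the one with most GAAGA in its feature, so it is picked for that word. Not printed are Tet2 exon 12 and Tet3 exon 4, whose GAAGA density is the lowest of the 6. Capitals mark GAAGA. Sequences are from the GENCODE M21 transcripts (GRCm38, mm10), all from the minus strand and written 5′ to 3′ as RNA sense with T for U.
Tet1 exon 2, chr10:62879827-62879946: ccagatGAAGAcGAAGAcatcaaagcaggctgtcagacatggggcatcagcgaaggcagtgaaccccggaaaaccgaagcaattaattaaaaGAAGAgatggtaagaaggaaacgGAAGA
Tet1 exon 4, chr10:62840252-62840371: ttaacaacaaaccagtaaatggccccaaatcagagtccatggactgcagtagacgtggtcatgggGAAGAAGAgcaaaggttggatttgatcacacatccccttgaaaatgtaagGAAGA
Tet2 exon 3, chr3:133486468-133486587: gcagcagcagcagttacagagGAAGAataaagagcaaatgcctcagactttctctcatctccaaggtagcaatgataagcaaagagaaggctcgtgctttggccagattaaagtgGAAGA
Tet3 exon 12, chr6:83368532-83368651: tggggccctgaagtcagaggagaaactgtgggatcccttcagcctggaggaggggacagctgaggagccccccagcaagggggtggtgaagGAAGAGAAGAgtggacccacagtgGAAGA
Dnmt1 exon 23, chr9:20919868-20919987: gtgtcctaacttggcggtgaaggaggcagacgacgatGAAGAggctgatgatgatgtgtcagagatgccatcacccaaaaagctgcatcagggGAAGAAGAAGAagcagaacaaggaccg
These windows hold 4, 3, 2, 3 and 4 copies of GAAGA in the order printed, and none holds TCTTC. Over 61855 adjoining coding windows of the same length in all features, 30.3% hold at least 1 GAAGA, 2.23% at least 3 and 0.771% at least 4, and 16.2% hold TCTTC. Those windows were not picked for the word, so the shares are a description and not a yardstick for the printed stretches.

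Tet1 RNA was precipitated most and Tet3 RNA least per kilobase of exonic feature. The length used is that of the whole feature, with any intron bases it holds. The Dnmt1 feature over exons 13 to 16, for example, has 279 exon bases of 747. Levels per exon base were not computed, and the order of the genes could differ there. In WT, exonic levels were 141 to 149 CPM per kb for Tet1 and 46.7 to 49.0 CPM per kb for Tet2. By this measure these ranges stood apart from all others. Dnmt1 at 25.8 to 27.8 CPM per kb stood just above Uhrf1 at 23.9 to 25.6 CPM per kb. Dnmt3b (14.8 to 23.3 CPM per kb) and Dnmt3l (18.3 to 22.2 CPM per kb) overlapped. Dnmt3a followed at 10.4 to 13.7 CPM per kb, and Tet3 came last at 3.87 to 4.84 CPM per kb. In SAFB DKO, Tet1 stood at 90.6 to 97.1 CPM per kb, Uhrf1 at 40.5 to 43.4 CPM per kb, and Dnmt3l at 35.5 to 37.1 CPM per kb overlapped Tet2 at 33.0 to 38.1 CPM per kb. Dnmt1 (27.4 to 30.6 CPM per kb), Dnmt3b (22.5 to 24.9 CPM per kb), Dnmt3a (16.2 to 17.6 CPM per kb) and Tet3 (1.57 to 2.04 CPM per kb) followed without overlap. In EZH2 KO, Tet1 reached 204 to 225 CPM per kb, and the 5 DNMT and Uhrf1 genes lay between 9.40 and 19.3 CPM per kb.

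**Figure D1:**
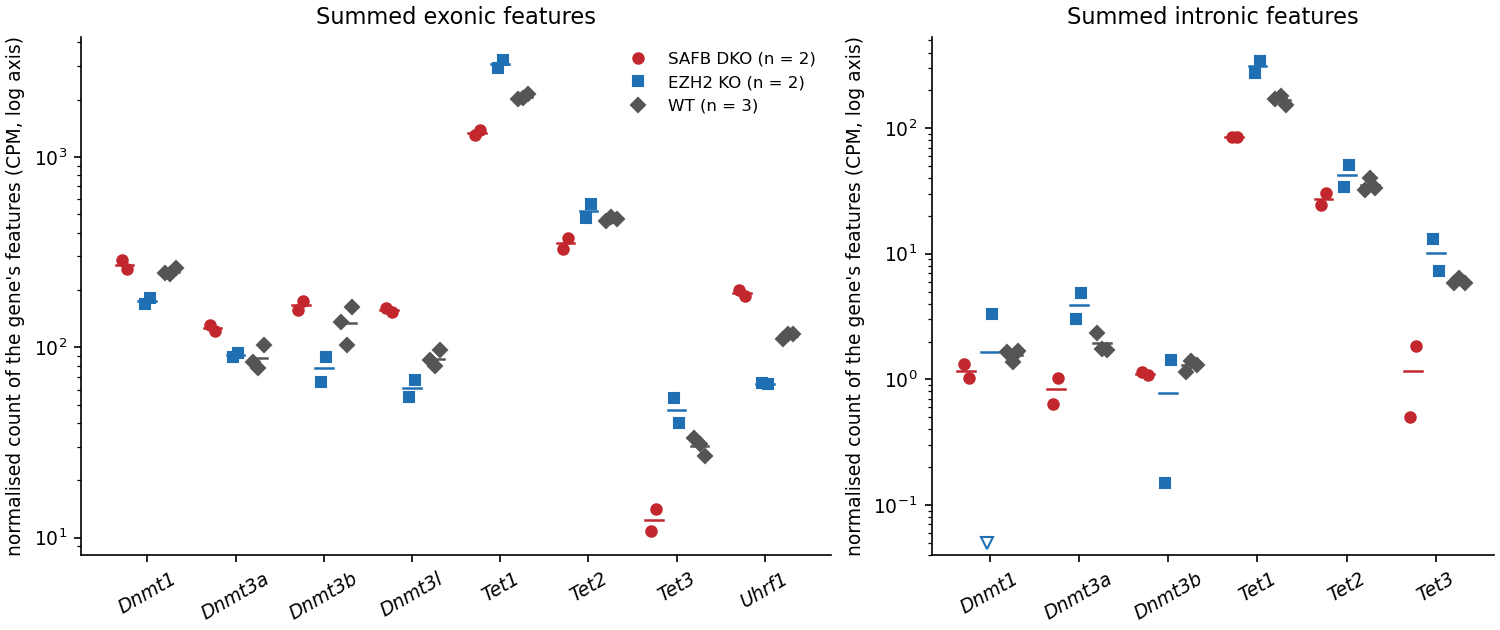
Normalised counts (CPM, log axis) summed over the exonic features (left) and the intronic features (right) of each gene, with 1 point per library and a line at the group mean; the open triangle marks a library with 0 counts. In SAFB DKO, exonic counts of Tet1, Tet2 and Tet3 lie below the WT points, and those of Dnmt3a, Dnmt3l and Uhrf1 lie above them.

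Over the exonic sums of the 8 genes, in SAFB DKO against WT the 3 TET genes fell, Dnmt3a, Dnmt3l and Uhrf1 rose, and Dnmt1 and Dnmt3b were not called. Among all 15237 exonic sums tested in that comparison, 21.8% fell and 20% rose, so calls in either direction were common. In EZH2 KO against WT, Tet1 and Tet3 rose, Dnmt1, Dnmt3b, Dnmt3l and Uhrf1 fell, and Dnmt3a and Tet2 were not called; among all exonic sums 18% rose and 27.2% fell. These 2 comparisons share the WT libraries, and their values stand side by side below. A change is called at a Benjamini-Hochberg adjusted p under 0.05 in edgeR's quasi-likelihood test over the whole table. Another scaling shifts every log2 fold change together: the median of all sums moved by up to 0.27 in SAFB DKO against WT (DESeq2 size factors) and by -0.25 in EZH2 KO against WT (column totals). Across the 3 other scalings, none of the calls in this paragraph changed direction, and those that were lost or gained are named with the gene.

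**Figure D2:**
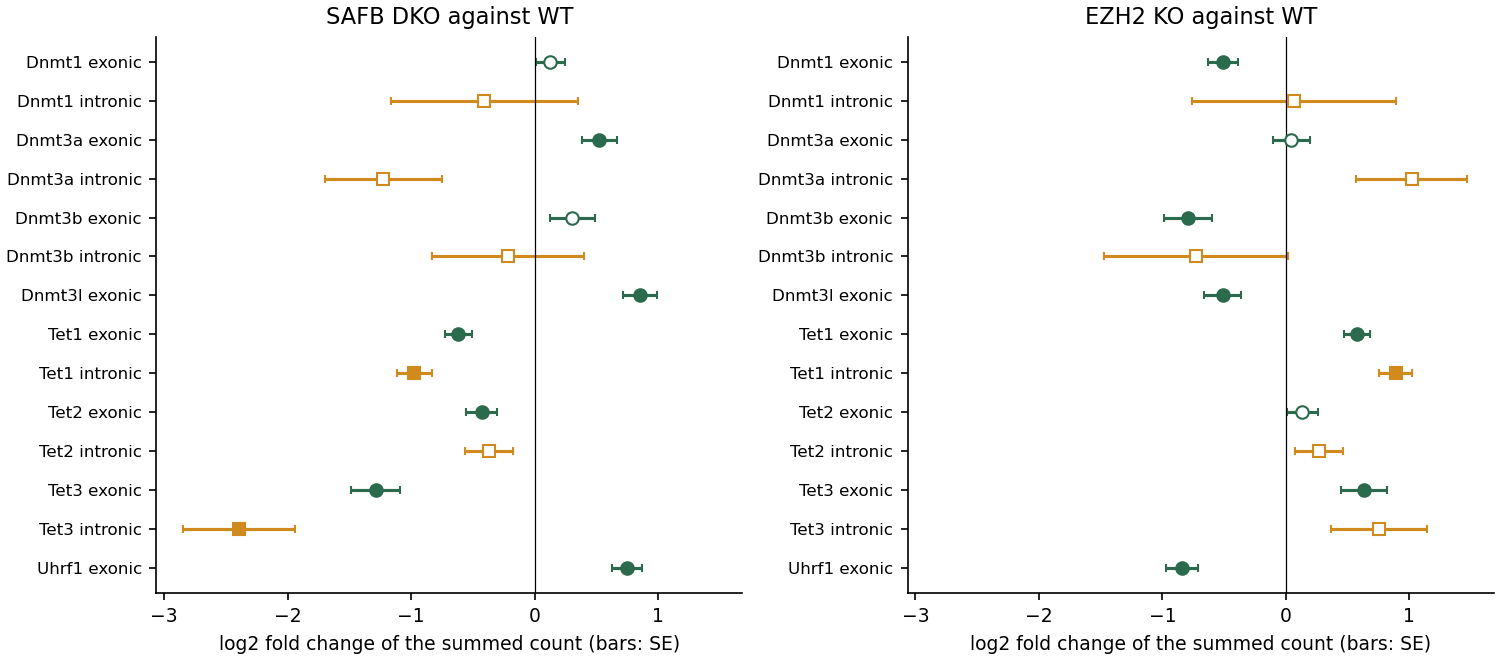
Log2 fold change of the summed exonic (circles) and intronic (squares) counts of each gene, with SE, in SAFB DKO against WT (left) and EZH2 KO against WT (right); filled symbols have an adjusted p under 0.05. The 3 TET genes lie left of 0 in SAFB DKO, and Dnmt3a, Dnmt3l and Uhrf1 exonic sums lie right of 0.

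Tet1 (chr10:62804570-62908996, minus strand), the TET enzyme best known from embryonic stem cells, had 16 exonic and 24 intronic features. Its exonic features together held 1296 and 1389 CPM in SAFB DKO, 2923 and 3217 CPM in EZH2 KO, and 2018, 2029 and 2131 CPM in WT. The 3 groups did not overlap, with SAFB DKO lowest and EZH2 KO highest. Exonic Tet1 fell 1.53-fold in SAFB DKO against WT (log2 fold change -0.62, SE 0.11, adjusted p = 0.000439). It rose 1.49-fold in EZH2 KO against WT (log2 fold change 0.58, SE 0.10, adjusted p = 0.000833). With column totals the change in EZH2 KO was 0.33 and that in SAFB DKO -0.39 on the log2 scale, and DESeq2 gave -0.35 in SAFB DKO; the calls held.

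The loss of Tet1 in SAFB DKO was not even along the RNA. Exon 2, a coding exon covered by the feature at chr10:62878093-62880135, held 406 and 406 CPM in SAFB DKO, 1484 and 1526 CPM in EZH2 KO, and 872, 916 and 858 CPM in WT. That feature has the highest counts of the gene, and its groups are far apart. It fell in SAFB DKO against WT (log2 fold change -1.12, SE 0.10, adjusted p = 5.75e-07) and rose in EZH2 KO against WT (0.77, SE 0.10, adjusted p = 0.000117). Exon 4, also coding (chr10:62838151-62840420) and chosen after its values were seen, gave 394 and 396 CPM in SAFB DKO, 1154 and 1331 CPM in EZH2 KO, and 772, 734 and 802 CPM in WT. It fell by 0.96 in SAFB DKO against WT and rose by 0.69 in EZH2 KO against WT on the log2 scale. Exon 12, again chosen after its values were seen (chr10:62812029-62813865), held 135 and 145 CPM in SAFB DKO, 126 and 150.3 CPM in EZH2 KO, and 126, 135 and 143 CPM in WT, with overlapping groups and no call in either comparison (log2 fold changes 0.06 and 0.04).

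The 4 features that lie wholly in the 3′ untranslated region of Tet1 went the other way. The longest of them (3137 bases) held 157 and 200.4 CPM in SAFB DKO, 46.3 and 65.7 CPM in EZH2 KO, and 100.2, 94.4 and 139 CPM in WT. Both SAFB DKO libraries were above the WT libraries and both EZH2 KO libraries below them. Its log2 fold change was 0.68 (SE 0.19, adjusted p = 0.0188) in SAFB DKO against WT and -0.99 (SE 0.21, adjusted p = 0.00409) in EZH2 KO against WT. All 4 rose in SAFB DKO against WT (0.68 to 1.05 on the log2 scale) and 3 of 4 fell in EZH2 KO against WT. These 4 were singled out after their values were seen. Of their calls in SAFB DKO against WT, 1 held in each of 7 fits that left out 1 library, and the other 3 held in 2 to 4 of those fits; the call of the longest was lost without SAFB DKO replicate 2, WT replicate 1 or WT replicate 2.

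Each exonic feature of Tet1 was also tested against all its exonic features together (edgeR diffSpliceDGE, added after the data were seen). By that test the exonic features differed in their response to the SAFB double knockout (adjusted p = 3.7e-17). Genes with such a difference made up 13.2% of the 10617 genes tested. Of 16 features, 6 rose relative to the whole gene and 0 fell, where 1.32% rose and 1.16% fell among all exonic features. The whole gene includes the feature itself, and exons 2 and 4 held 81.5%, 81.3% and 77.9% of exonic counts in WT. These exons weigh heavily in the reference, so the test can hardly call them as falling. It does not show that they followed the other features. In EZH2 KO against WT the exonic features of Tet1 also differed (adjusted p = 9.75e-15). Relative to the whole gene 5 fell and 0 rose, where 4.86% of features fell, 0.99% rose and 37% of genes were called. Tet2 differed within the gene as well (adjusted p = 0.000322 in SAFB DKO against WT and 0.00979 in EZH2 KO against WT). Tet3 was called in EZH2 KO against WT (adjusted p = 0.00187) and not in SAFB DKO against WT (0.803). Dnmt1 (0.00522), Dnmt3a (0.0016) and Dnmt3l (0.0174) were called in EZH2 KO against WT too.

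**Figure D3:**
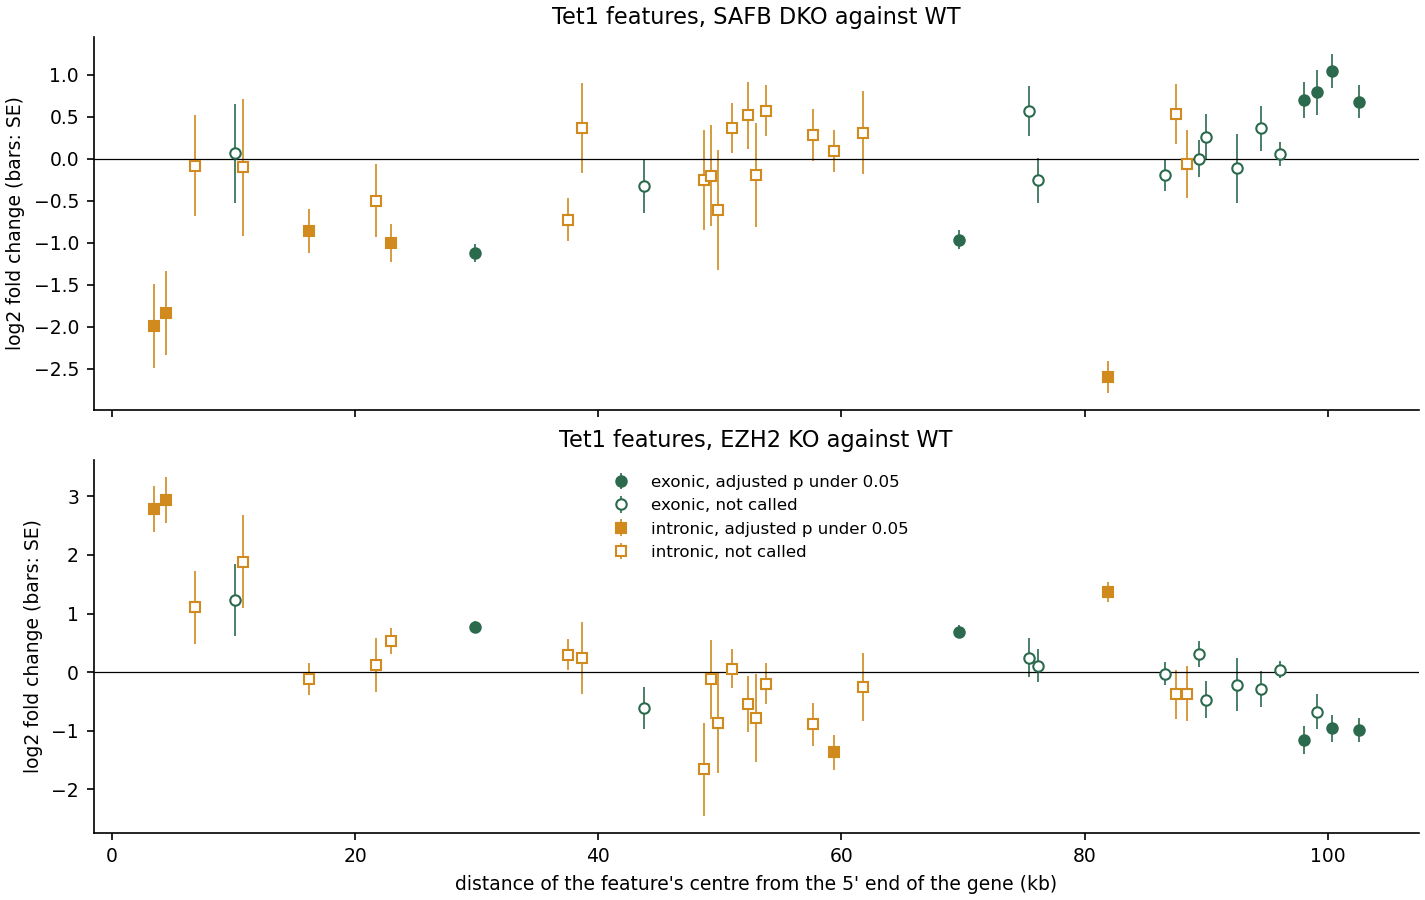
Log2 fold change with SE of each tested Tet1 feature against the distance of its centre from the 5′ end of the gene in kilobases, in SAFB DKO against WT (top) and EZH2 KO against WT (bottom); circles are exonic and squares intronic, and filled symbols have an adjusted p under 0.05. Coding exons 2 and 4 (-1.12 and -0.96) and intron 6 (-2.59) lie below 0 in SAFB DKO, and the 4 untranslated features at the 3′ end (0.68 to 1.05) lie above 0.

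As a share of each gene's exonic counts, which does not depend on scaling, the features with a coding stretch of at least 1000 bases took a smaller part in SAFB DKO and a larger part in EZH2 KO than in WT. For Tet1, exons 2 and 4 held 61.7% and 57.7% of exonic counts in SAFB DKO, 90.3% and 88.8% in EZH2 KO, and 81.5%, 81.3% and 77.9% in WT. For Tet2, exons 3 and 12 held 79.6% and 76.8% in SAFB DKO, 90.4% and 90.1% in EZH2 KO, and 87.2%, 86.6% and 86.5% in WT. For Tet3, exons 4 and 12 held 70.9% and 70.6% in SAFB DKO, 88.1% and 87.1% in EZH2 KO, and 81.4%, 79.3% and 80.7% in WT. In each of the 3 genes the groups did not overlap; the grouping was chosen after the values were seen, so no test is given.

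Levels of the remainder of Tet1 did not follow the long exons. Its 3′ untranslated features summed to 277 and 353 CPM in SAFB DKO, 78.6 and 113 CPM in EZH2 KO, and 166, 161 and 231 CPM in WT. The other 10 exonic features summed to 219 and 234 CPM in SAFB DKO, 206 and 247 CPM in EZH2 KO, and 208, 218 and 240.0 CPM in WT, with overlapping groups.

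**Figure D4:**
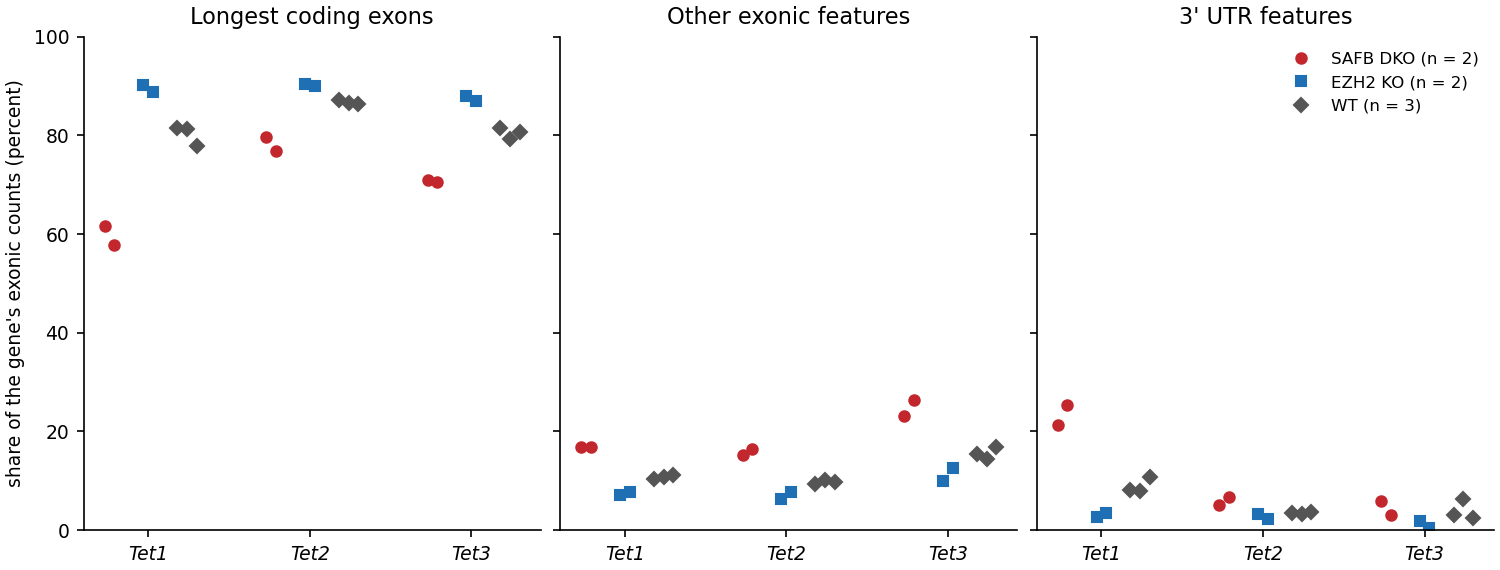
Share of the exonic counts of Tet1, Tet2 and Tet3, in percent, that fell on features with a coding stretch of at least 1000 bases (left), on the other exonic features (middle) and on features wholly in the 3′ untranslated region (right), with 1 point per library. For the long coding exons the SAFB DKO points are lowest and the EZH2 KO points highest in all 3 genes, as in the 61.7% and 57.7% of Tet1 in SAFB DKO.

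In the introns of Tet1, counts fell in SAFB DKO and rose in EZH2 KO. Intronic features summed to 85.3 and 85.3 CPM in SAFB DKO, 276 and 344 CPM in EZH2 KO, and 172, 179 and 152 CPM in WT, without overlap of groups. The log2 fold change was -0.97 (SE 0.14, adjusted p = 9.13e-05) in SAFB DKO against WT and 0.89 (SE 0.13, adjusted p = 0.000245) in EZH2 KO against WT. Of all 9881 intronic sums tested in SAFB DKO against WT, 45.1% fell and 0.84% rose; in EZH2 KO against WT 9.11% fell and 26.8% rose, so the direction of Tet1 was a common one.

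A stretch of intron 6 of Tet1 (chr10:62825901-62828177, 2277 bases) carried more intronic counts than any other feature of the 8 genes. It held 12.9 and 12.8 CPM in SAFB DKO, 183 and 218 CPM in EZH2 KO, and 80.2, 88.3 and 63.8 CPM in WT. The SAFB DKO libraries were far below and the EZH2 KO libraries far above WT. Its log2 fold change was -2.59 (SE 0.19, adjusted p = 5.04e-08) in SAFB DKO against WT and 1.37 (SE 0.17, adjusted p = 7.96e-05) in EZH2 KO against WT. The feature is in neither the filtered nor the short list of peaks that the authors deposited.

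Near the 5′ end of the Tet1 span, upstream of the first exon of the transcript with the longest coding sequence, 2 neighbouring intronic features changed most in EZH2 KO. The feature at chr10:62904130-62904919 held 0.730 and 0.269 CPM in SAFB DKO, 13.2 and 15.1 CPM in EZH2 KO, and 2.34, 2.21 and 0.940 CPM in WT. It fell in SAFB DKO against WT (log2 fold change -1.83, SE 0.50, adjusted p = 0.0151) and rose in EZH2 KO against WT (2.94, SE 0.40, adjusted p = 0.000163). The neighbour at chr10:62905304-62905792, a short-list peak, had log2 fold changes of -1.99 and 2.79 in those comparisons. Both falls lost their call without SAFB DKO replicate 2 (-1.36 for the feature described first and -1.53 for the short-list peak), and that of the first also without WT replicate 1 or WT replicate 2.

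In intron 3 of Tet1, which holds 10 features, log2 fold changes in SAFB DKO against WT ran from -0.61 to 0.57 and none was called. A feature there singled out after its values were seen, chr10:62848878-62850294, fell in EZH2 KO against WT, with 4.06 and 3.15 CPM in EZH2 KO and 8.55, 9.27 and 10.2 CPM in WT (log2 fold change -1.37, SE 0.30, adjusted p = 0.0058).

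Tet2 (chr3:133463679-133545139, minus strand), the second TET enzyme of embryonic stem cells, had 12 exonic and 25 intronic features. Exonic features held 327 and 377 CPM in SAFB DKO, 475 and 564 CPM in EZH2 KO, and 463, 485 and 473 CPM in WT. SAFB DKO was below WT in both libraries, and EZH2 KO overlapped WT. The exonic sum fell in SAFB DKO against WT (log2 fold change -0.43, SE 0.13, adjusted p = 0.0143) and was not called in EZH2 KO against WT (0.13, SE 0.12, adjusted p = 0.417). The fall was not called with column totals (-0.20), with DESeq2 (-0.16) or without SAFB DKO replicate 1 (-0.33).

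Exon 3 of Tet2, with 3160 coding bases, held 206 and 224 CPM in SAFB DKO, 347 and 416 CPM in EZH2 KO, and 326, 329.9 and 328 CPM in WT, and fell in SAFB DKO against WT (log2 fold change -0.61, SE 0.13, adjusted p = 0.00264; -0.34 and not called with DESeq2). The intronic sum of 24.4 and 30.3 CPM in SAFB DKO, 34.0 and 51.0 CPM in EZH2 KO, and 32.2, 39.9 and 33.7 CPM in WT was not called in either comparison (log2 fold changes -0.37 and 0.27). In intron 1, the feature at chr3:133525699-133527057 held 2.60 and 1.88 CPM in SAFB DKO, 10.2 and 20.4 CPM in EZH2 KO, and 6.48, 7.53 and 4.33 CPM in WT. It fell in SAFB DKO against WT (log2 fold change -1.44, SE 0.36, adjusted p = 0.0083) and rose in EZH2 KO against WT (1.32, SE 0.33, adjusted p = 0.0127), and its neighbour at chr3:133524807-133525209 was also called in both, with 0.639 and 1.02 CPM in SAFB DKO, 6.77 and 5.82 CPM in EZH2 KO, and 2.16, 2.49 and 1.98 CPM in WT. For both features some of the fits without 1 library gave no call, such as 0.67 for the longer one in EZH2 KO without replicate 2 of that group. The fall of the shorter one was also not called with column totals (-1.20) or DESeq2 (-1.16). Its rise was not called when replicate number entered the fit as a block (1.41).

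Tet3 (chr6:83362373-83459084, minus strand) was the least precipitated of the TET genes, with 12 exonic and 9 intronic features, of which 7 and 1 passed the filter on low counts. Exonic features held 10.8 and 14.1 CPM in SAFB DKO, 54.1 and 40.1 CPM in EZH2 KO, and 33.4, 30.9 and 26.7 CPM in WT. The groups did not overlap. The exonic sum fell 2.44-fold in SAFB DKO against WT (log2 fold change -1.29, SE 0.20, adjusted p = 0.000152) and rose in EZH2 KO against WT (0.63, SE 0.19, adjusted p = 0.0161), a rise that was not called with column totals (0.41), without EZH2 KO replicate 1 (0.34) or without WT replicate 3 (0.57).

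Both long coding exons of Tet3 fell in SAFB DKO. Exon 4 held 4.70 and 5.54 CPM in SAFB DKO, 21.2 and 17.6 CPM in EZH2 KO, and 14.7, 15.2 and 12.6 CPM in WT (SAFB DKO against WT log2 fold change -1.47, SE 0.24, adjusted p = 0.000258). Exon 12, chosen after its values were seen, changed by -1.48 in SAFB DKO against WT and by 1.09 in EZH2 KO against WT, the rise being lost without EZH2 KO replicate 1 (0.68), WT replicate 2 or WT replicate 3. A coding feature over exon 7 (265 bases) had 0 counts in both EZH2 KO libraries and 0.781, 0.941 and 0.626 CPM in WT. Against a floor of 3 counts over the EZH2 KO group it was at least 3.42-fold lower in EZH2 KO (adjusted p = 0.0359, not called in 4 of the 7 fits that left out 1 library).

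Intron 4 of Tet3 holds the other short-list peak of the 8 genes (chr6:83396352-83398546). It had 0.137 and 0.646 CPM in SAFB DKO, 13.1 and 7.08 CPM in EZH2 KO, and 3.77, 4.99 and 4.49 CPM in WT. Groups did not overlap, and SAFB DKO was nearly empty. The log2 fold change was -3.52 (SE 0.52, adjusted p = 8.74e-05) in SAFB DKO against WT and 1.19 (SE 0.39, adjusted p = 0.0468) in EZH2 KO against WT; the rise was not called in several alternatives, such as 0.62 without EZH2 KO replicate 1. Features were called on pooled WT precipitates, so the listing gives no independent support for a fall from WT. The intronic sum of Tet3, which fell in SAFB DKO against WT (-2.40, SE 0.45, adjusted p = 0.000794), came mostly from this peak in EZH2 KO and WT.

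Dnmt1 (chr9:20907209-20959888, minus strand), the maintenance methyltransferase, had 25 exonic and 2 intronic features. Exonic features held 287 and 257 CPM in SAFB DKO, 169 and 181 CPM in EZH2 KO, and 245, 242 and 261 CPM in WT. SAFB DKO overlapped WT, and EZH2 KO lay below. The exonic sum was not called in SAFB DKO against WT (log2 fold change 0.13, SE 0.12, adjusted p = 0.423; called as a rise with column totals, 0.35, and DESeq2, 0.39) and fell in EZH2 KO against WT (-0.51, SE 0.12, adjusted p = 0.00543). Its most counted feature, exons 24 to 26 (chr9:20917899-20918588), held 36.2 and 38.6 CPM in SAFB DKO, 22.1 and 23.7 CPM in EZH2 KO, and 35.8, 33.6 and 35.7 CPM in WT. The feature over exon 10 (chr9:20932060-20932346) had the largest called change, -1.43 in EZH2 KO against WT (SE 0.45, adjusted p = 0.0395), with 1.65 and 1.26 CPM in EZH2 KO and 3.91, 4.33 and 3.60 CPM in WT; leaving out any 1 WT library ended both feature calls in EZH2 KO. The GAAGA-rich feature that holds exon 23 was not called (log2 fold changes 0.01 and -0.43).

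Uhrf1 (chr17:56303321-56323486, plus strand), the reader of hemimethylated DNA that brings DNMT1 to replicated DNA, had 10 exonic features and no intronic one. It held 199.8 and 186 CPM in SAFB DKO, 64.6 and 63.8 CPM in EZH2 KO, and 110.0, 117 and 118 CPM in WT. No group overlapped another, and SAFB DKO was highest. Uhrf1 rose 1.68-fold in SAFB DKO against WT (log2 fold change 0.75, SE 0.12, adjusted p = 0.000244) and fell 1.79-fold in EZH2 KO against WT (-0.84, SE 0.13, adjusted p = 0.000276). Of its 10 features, 5 rose in SAFB DKO and 6 fell in EZH2 KO against WT, where 4.81% rose and 13.6% fell among all exonic features of 1 gene. Features of a gene move with its sum and are not independent. Among exonic gene sums, 20% rose and 27.2% fell in these comparisons. The most counted, exons 16 and 17 (chr17:56322049-56323428), changed by 0.79 and -0.67. Exon 3 (chr17:56309312-56309616) rose by 0.90 in SAFB DKO against WT, and exons 14 and 15 (chr17:56320207-56320510) changed by -1.78 in EZH2 KO against WT. The call of exons 14 and 15 was lost when replicate number entered the fit as a block (-1.67). In SAFB DKO against WT, the calls of exons 16 to 17 and of exon 3 were lost without SAFB DKO replicate 2, and that of exon 3 also without WT replicate 1 or WT replicate 3; in EZH2 KO against WT, the call of exons 16 to 17 was lost without any 1 WT library.

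Dnmt3a (chr12:3806007-3914443, plus strand), a de novo methyltransferase, had 16 exonic and 8 intronic features. Exonic features held 132 and 121 CPM in SAFB DKO, 88.7 and 92.9 CPM in EZH2 KO, and 83.3, 78.3 and 103 CPM in WT. SAFB DKO lay above WT, and EZH2 KO overlapped it. The exonic sum rose in SAFB DKO against WT (log2 fold change 0.52, SE 0.14, adjusted p = 0.00955) and was not called in EZH2 KO against WT (0.04, SE 0.15, adjusted p = 0.835; -0.09 and -0.20 with the TMM factors of all features and with column totals). The rise was not called without SAFB DKO replicate 1 (0.46), WT replicate 1 (0.47) or WT replicate 2 (0.44). Its last exon, number 23 (chr12:3907569-3909670), held 49.3 and 47.7 CPM in SAFB DKO, 50.5 and 51.4 CPM in EZH2 KO, and 35.9, 34.4 and 49.4 CPM in WT, and was not called. A 3′ untranslated feature (chr12:3912191-3912599) rose by 1.01 in SAFB DKO against WT, and exons 18 and 19 (chr12:3902088-3902833) changed by -1.40 in EZH2 KO against WT; the first call was lost without any 1 library of SAFB DKO or WT, and the second without any 1 WT library.

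Dnmt3b (chr2:153649450-153687730, plus strand), the other de novo enzyme, had 14 exonic features and 1 intronic feature. Exonic features held 158 and 174 CPM in SAFB DKO, 65.8 and 89.5 CPM in EZH2 KO, and 137, 103 and 164 CPM in WT. SAFB DKO overlapped WT and EZH2 KO lay below it. The exonic sum was not called in SAFB DKO against WT (log2 fold change 0.30, SE 0.18, adjusted p = 0.202; called as a rise with column totals, 0.53, and DESeq2, 0.57) and fell in EZH2 KO against WT (-0.79, SE 0.19, adjusted p = 0.00554). Its last exon (chr2:153686223-153687668) changed by -0.84 and exons 14 and 15 (chr2:153673942-153674425) by -1.16 in EZH2 KO against WT. Both calls were lost without WT replicate 1 or WT replicate 3, and that of the last exon also without EZH2 KO replicate 1.

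Dnmt3l (chr10:78041947-78063622, plus strand), the catalytically inactive partner of the de novo enzymes, had 11 exonic features and no intronic one. It held 161 and 154 CPM in SAFB DKO, 54.9 and 67.5 CPM in EZH2 KO, and 85.6, 79.7 and 96.3 CPM in WT, again with no overlap between groups. Dnmt3l rose 1.81-fold in SAFB DKO against WT (log2 fold change 0.85, SE 0.14, adjusted p = 0.000253) and fell in EZH2 KO against WT (-0.51, SE 0.15, adjusted p = 0.0142; -0.42 and not called without WT replicate 3). The last exon (chr10:78063159-78063815) had the most counts, 53.1 and 52.3 CPM in SAFB DKO, 13.8 and 18.2 CPM in EZH2 KO, and 26.5, 28.3 and 33.2 CPM in WT. Of the 11 features of Dnmt3l, 7 rose in SAFB DKO against WT, where 4.81% rose among all. They belong to 1 gene and are not independent, and among exonic gene sums 20% rose. Exons 5 and 6 (chr10:78051786-78052124) rose by 1.15 in SAFB DKO against WT, and exon 7 (chr10:78052692-78053184) changed by 0.76 and -0.93. The calls of these 2 features in SAFB DKO were lost without any 1 library of SAFB DKO or WT, and in EZH2 KO that of exon 7 without EZH2 KO replicate 1 or any 1 WT library and that of the last exon without WT replicate 3.

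Counted as single features, 104 exonic and 46 intronic members passed the filter on low counts, and 12 and 23 did not. Features of the same gene are not independent, so such counts of features, here and below, are a description. In SAFB DKO against WT, 5 exonic members fell and 20 rose, where among all exonic features of 1 gene 6.57% fell and 4.81% rose; 8 intronic members fell and 0 rose, where 19.7% fell and 0.167% rose among all. These 8 were 5 of 22 tested in Tet1, 2 of 19 in Tet2 and 1 of 1 in Tet3, and 4 intronic features were tested in the DNMT genes. The share of intronic members that fell was thus near the background. In EZH2 KO against WT, 22 exonic members fell and 3 rose (13.6% and 4.74% of all exonic features), and 1 intronic member fell and 6 rose (4.26% and 8.75% of all intronic features). The 3 exonic rises were Tet1 exons 2 and 4 and Tet3 exon 12. No exonic member was in the authors' filtered list of 33671 peaks; of the intronic members 4 were, 2 of them in the short list of 10043 peaks.

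Intronic sums of the DNMT genes were small. Dnmt3a had 0.639 and 1.02 CPM in SAFB DKO, 3.01 and 4.88 CPM in EZH2 KO, and 2.34, 1.74 and 1.72 CPM in WT. Neither of its comparisons with WT was called (log2 fold changes -1.23, adjusted p = 0.0521, and 1.02, adjusted p = 0.0843), although the groups did not overlap. With features called exonic only at 50% overlap, which moves features into the intronic sum, the value in SAFB DKO against WT was 0.63 and was called. Fitted on only the 2 groups compared, it was -1.24 and was called as a fall. Its most counted intronic feature, a filtered-list peak in intron 1 (chr12:3821338-3821735), was too low to be tested. Dnmt1 introns had 1.32 and 1.02 CPM in SAFB DKO, 0 and 3.30 CPM in EZH2 KO, and 1.65, 1.36 and 1.67 CPM in WT. Dnmt3b introns had 1.14 and 1.08 CPM in SAFB DKO, 0.150 and 1.42 CPM in EZH2 KO, and 1.15, 1.41 and 1.31 CPM in WT. Neither was called in any comparison, and in both genes replicate 1 of EZH2 KO lay far below replicate 2.

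The ratio of intronic to exonic counts within a library, which needs no scaling, was tested with limma for the 6 genes with introns covered. In SAFB DKO against WT it fell for Dnmt3a (log2 difference -1.73, SE 0.49, adjusted p = 0.0126), Tet1 (-0.35, SE 0.12, adjusted p = 0.0295) and Tet3 (-1.29, SE 0.41, adjusted p = 0.0234), and it was not called for Tet2 (0.06, SE 0.16, adjusted p = 0.777), Dnmt1 or Dnmt3b. Among 7659 genes tested, 40.2% fell and 4.47% rose. Each of these 3 falls against WT was lost in 2 or more of the fits without 1 library (Tet3 -0.59 and Dnmt3a -1.34 without SAFB DKO replicate 1, Tet1 -0.30 without SAFB DKO replicate 2). With features called exonic only at 50% overlap, Tet1 gave -0.08 and Dnmt3a 0.19, neither called, and Tet2 gave 0.58, a called rise. For Tet1 introns made up 6.17% and 5.79% of counts in SAFB DKO, 8.64% and 9.66% in EZH2 KO, and 7.84%, 8.10% and 6.66% in WT. For Tet3 they made up 4.44% and 11.5% in SAFB DKO, 19.5% and 15.3% in EZH2 KO, and 15.0%, 17.2% and 17.8% in WT. No ratio of the 6 was called in EZH2 KO against WT, where 7.7% fell and 28.3% rose among all. In SAFB DKO against EZH2 KO the ratio fell for Dnmt3a (-2.69), Tet3 (-1.37) and Tet1 (-0.66), where 52.7% fell and 10.6% rose. There Tet3 lost its call without SAFB DKO replicate 1, and at 50% overlap Tet1 was not called and Dnmt3a (0.49) and Tet2 (0.76) were called as rises.

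Set against each other directly, SAFB DKO and EZH2 KO give the test of the difference between their effects. In SAFB DKO against EZH2 KO all 5 exonic sums of the DNMT genes and Uhrf1 rose, and all 3 of the TET genes fell, where 37.1% of exonic sums rose and 28.9% fell among all genes. Log2 fold changes were 1.59 for Uhrf1 (SE 0.14, adjusted p = 4.6e-07), 1.37 for Dnmt3l, 1.10 for Dnmt3b, 0.64 for Dnmt1 and 0.48 for Dnmt3a, against -1.92 for Tet3 (SE 0.22, adjusted p = 4.4e-06), -1.19 for Tet1 and -0.56 for Tet2. With column totals the median of all sums in this comparison moved by 0.48, from -0.28 to 0.20. Intronic sums fell for Tet3 (-3.15), Dnmt3a (-2.24), Tet1 (-1.86) and Tet2 (-0.64), where 50.3% of intronic sums fell and 8.21% rose. As single features, 44 exonic members rose and 6 fell, where 29.5% rose and 10.1% fell among all exonic features of 1 gene, and 9 intronic members fell and 3 rose, where 26.6% fell and 7.7% rose. Tet2 was not called with column totals, exonic (-0.09) or intronic (-0.15), with DESeq2 (-0.30 and -0.37) or without SAFB DKO replicate 1, and its intronic fall was also lost without EZH2 KO replicate 2 (-0.26) and with TMM factors of all features. Dnmt3a exonic was lost without SAFB DKO replicate 1 (0.47) and at 50% overlap (0.26), where the intronic sum of Dnmt3a became a called rise (0.75) and that of Tet2 gave 0.09.

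The length of the coding exon separated features of all genes in both comparisons, a description added after the data were seen. Over 10051 tested features whose longest coding stretch was at least 200 and under 500 bases, the median log2 fold change was 0.24 in SAFB DKO against WT and -0.47 in EZH2 KO against WT. For 336 features of at least 2000 bases the medians were -0.996 and 0.61. Set against all exonic features of the gene together, the medians of 302 features of that class were -0.10 and 0.06 in natural log units. Those of 9611 features of the shorter class were 0.04 and -0.10. That reference includes the feature itself, so a feature with most of its gene's counts differs little from it. These medians therefore cannot give the size of the pattern within genes. In that longest class Tet1 exon 4 (-0.96 and 0.69) lay near the medians, Tet2 exon 3 (-0.61 and 0.22) was closer to 0, and Tet3 exon 4 (-1.47 and 0.46) fell further in SAFB DKO. The TET exons thus lay on both sides of the medians of long coding exons. Spearman's rho over 20114 features, which share libraries and differ in depth, was -0.42 and 0.37 for coding length and -0.13 and 0.07 for GAAGA per kb in the same comparisons. GAAGA density was 4.29 and 4.09 per kb in Tet1 exons 2 and 4, 1.90 and 0.69 in Tet2 exons 3 and 12, 1.87 and 3.37 in Tet3 exons 4 and 12, and 16.3 in the Dnmt1 feature with exon 23, against a median of 2.98 over 20528 features. Of the 6 long TET exons, 3 thus lie above that median and 3 below it.

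**Figure D5:**
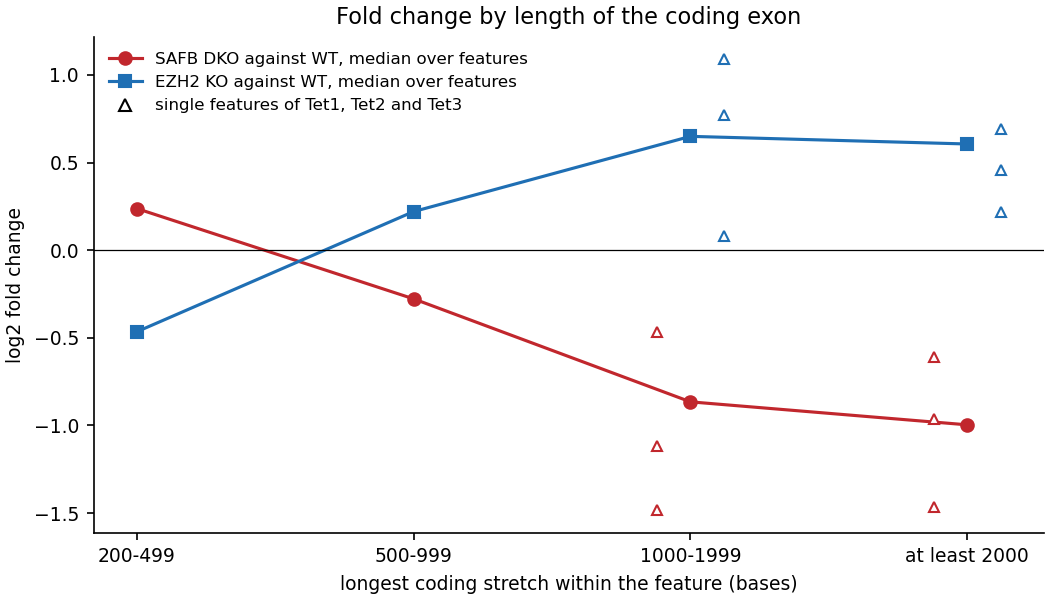
Median log2 fold change of all tested features by the length in bases of their longest coding stretch, in SAFB DKO against WT (red circles) and EZH2 KO against WT (blue squares), with the 6 long TET features as open triangles in the colour of the comparison. Medians reach -0.996 in SAFB DKO and 0.61 in EZH2 KO in the longest class, and the TET features scatter around them.

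Of a list of 39 partner genes (readers of methylated DNA, base excision repair, cofactors and regulators of the enzymes), 38 had exonic sums tested. The sums of 9 fell and those of 14 rose in the SAFB double knockout against WT, with a median of 0.35 (log2 fold change) against 0.07 over all exonic sums, of which 21.8% fell and 20% rose. In EZH2 KO against WT 14 fell and 10 rose, with a median of -0.37 against -0.19 over all, of which 27.2% fell and 18% rose. Zbtb4, a zinc finger reader of methylated CpG, had the largest exonic fall in SAFB DKO (-2.11, SE 0.31, adjusted p = 9.75e-05; 2.87 CPM in SAFB DKO and 12.3 CPM in WT) and the largest rise in EZH2 KO (1.56; 36.4 CPM in EZH2 KO and 12.3 CPM in WT). Zbtb33, the methyl-CpG reader Kaiso (-1.56), and Cxxc4, a CXXC-domain protein linked to TET2 (-1.97), also fell in SAFB DKO. The fall of Cxxc4 rests on low counts, with 0.411 and 0.215 CPM in SAFB DKO and 0.919, 1.51 and 1.36 CPM in WT. Dppa3, which shields methylation in the zygote (0.94), the uracil glycosylase Smug1 (0.92) and Idh2, a source of the TET cosubstrate (0.87), rose in SAFB DKO. In EZH2 KO against WT, Mbd4 (1.22), a reader of methylated CpG, rose, and Idh1 (-1.30), the repair nuclease Apex1 (-1.29) and Dppa3 (-1.22) fell.

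Intronic sums of 21 partner genes were tested. In SAFB DKO against WT 7 fell and 1 rose (median -0.62, against -0.93 over all intronic sums, of which 45.1% fell and 0.84% rose). Among them was the MBD-domain gene Mbd5 with 23.3 CPM in SAFB DKO and 110.4 CPM in WT (-2.24, SE 0.21, adjusted p = 1.95e-06). The repair scaffold Xrcc1 (-3.43) and Prdm14 (-2.22), a regulator that lowers de novo methylation in embryonic stem cells, also fell, both at low counts. Xrcc1 held 0.0456 and 0.108 CPM in SAFB DKO and 1.10, 0.847 and 0.679 CPM in WT. Prdm14 held 0.0912 and 0.646 CPM in SAFB DKO and 2.21, 1.79 and 1.04 CPM in WT. Calls of partner genes were not followed in the fits without 1 library. Ogt, the glycosyltransferase that binds TET proteins, was the 1 that rose (0.69). Intronic sums of 2 partners fell in EZH2 KO against WT, Setdb1 (-2.13) and Hells (-0.90), and those of 7 rose (median 0.35, against 0.26 over all, of which 9.11% fell and 26.8% rose), with Uhrf2 (1.28), Mbd1 (1.22) and Zbtb38 (1.01) at the top.

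Across the 7 libraries, the intronic sums most like those of Tet1 belonged to 1700086P04Rik, Rras2 and B4galnt3 (Pearson's r of log2 CPM 0.9996, 0.9996 and 0.9992 among 5608 genes). For Tet2 they were Erp29, Usp46 and Kif4 (0.990, 0.986 and 0.982), and for Tet3 Tmprss5, Fgf1 and Vegfd (0.992, 0.991 and 0.990). With 7 libraries in 3 groups and this many genes compared, such values are a description of these libraries.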

How the data were processed

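RIP-seq counts of 7 libraries were used. The deposited counts are whole, unnormalised reads per feature, made by the authors with featureCounts 2.0.3 with reverse strandedness over mm10 intervals, per the file headers. Neither aligner nor peak caller is named (not given in the sources used here). Also present in the table are 3 value columns of no sample, left out of every step. Features were assigned to genes with GENCODE M21; those of several genes stayed out of gene sums. With edgeR 4.0.16 (R 4.3.3), filterByExpr and glmQLFTest were run on all 7 libraries, with TMM factors from tested features outside the authors' filtered list and Benjamini-Hochberg adjustment over the table. Ratios of intronic to exonic counts, log2 with a pseudocount of 1 and mean counts of at least 10 in both, were tested with limma 3.58.1. DESeq2 1.42.0 served as an alternative. Scripts were tested on simulated data.

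Named were the 8 genes, for each its exonic and intronic feature with most counts, and its called feature with the largest change against WT at a mean of at least 10 counts; of the partners, the 3 with the largest called changes in each direction (1 of these is not reported here); and the 3 genes with the most similar intronic pattern at a mean of at least 50 counts. The members and lists were chosen with earlier results of these data known. Tests of features within a gene (diffSpliceDGE) and descriptions of coding length and GAAGA were added after the data were seen. Replicate numbers were not used as pairs in the main fits.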

Additional observations from a re-analysis of the deposited data

How the results depend on the processing

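Of the single sums, ratios and features under each alternative, 1258 kept direction and call, 64 turned in sign, 119 lost a call and 27 gained one. The cause of these changes was not tested. With column totals the sign was the other one in SAFB DKO against WT for the Dnmt3b intronic sum 0.00662, the Dnmt1 exonic feature at 20932060 0.0521 and the Dnmt3b intronic feature at 153652288 0.00657. With column totals the sign was the other one in EZH2 KO against WT for the Dnmt1 intronic sum -0.26, the Dnmt3a exonic sum -0.20, the Tet2 exonic sum -0.12, the Tet2 exonic feature at 133485511 -0.0339, the Dnmt1 intronic feature at 20950295 -0.24 and the Dnmt3a exonic feature at 3912191 -0.0258. With column totals the sign was the other one in SAFB DKO against EZH2 KO for the Dnmt1 intronic sum 0.0772. With DESeq2 the sign was the other one in SAFB DKO against WT for the Dnmt3b intronic sum 0.0505, the Dnmt1 exonic feature at 20932060 0.0929 and the Dnmt3b intronic feature at 153652288 0.0506. With TMM factors of all tested features the sign was the other one in EZH2 KO against WT for the Dnmt1 intronic sum -0.0776, the Dnmt3a exonic sum -0.087 and the Dnmt1 intronic feature at 20950295 -0.053. With features called exonic at 50% of their bases the sign was the other one in SAFB DKO against WT for the Dnmt3a intronic sum 0.63, the Dnmt3b intronic sum 0.24, the Tet2 intronic sum 0.0885 and the Dnmt3a ratio 0.19. With features called exonic at 50% of their bases the sign was the other one in EZH2 KO against WT for the Dnmt1 intronic sum -0.35, the Dnmt3a intronic sum -0.12, the Tet2 intronic sum -0.00207, the Dnmt1 ratio 0.19, the Dnmt3a ratio -0.30, the Dnmt3b ratio 0.20 and the Tet2 ratio -0.18. With features called exonic at 50% of their bases the sign was the other one in SAFB DKO against EZH2 KO for the Dnmt1 intronic sum 0.26, the Dnmt3a intronic sum 0.75, the Tet2 intronic sum 0.0906, the Dnmt1 ratio -0.47, the Dnmt3a ratio 0.49 and the Tet2 ratio 0.76. With a pseudocount of 5 the sign was the other one in EZH2 KO against WT for the Dnmt1 ratio 0.47 and the Dnmt3b ratio 0.66. With a pseudocount of 5 the sign was the other one in SAFB DKO against EZH2 KO for the Dnmt1 ratio -0.94. In fits without 1 library, SAFB DKO against WT gave a range with both signs for the Dnmt1 exonic feature at 20932060 (-0.50 to 0.0596). In fits without 1 library, EZH2 KO against WT gave a range with both signs for the Dnmt1 intronic sum (-7.85 to 1.01), the Dnmt3a exonic sum (-0.0537 to 0.18), the Dnmt3b intronic sum (-3.10 to 0.0706), the Tet2 exonic sum (-0.0594 to 0.19), the Tet2 intronic sum (-0.12 to 0.47), the Dnmt1 ratio (-2.86 to 1.57), the Dnmt3b ratio (-1.15 to 0.80), the Tet3 ratio (-0.13 to 0.28), the Tet2 ratio (-0.0485 to 0.29), the Dnmt1 intronic feature at 20950295 (-7.24 to 1.03) and the Dnmt3b intronic feature at 153652288 (-3.10 to 0.0706). In fits without 1 library, SAFB DKO against EZH2 KO gave a range with both signs for the Dnmt1 intronic sum (-1.43 to 7.43), the Dnmt3b intronic sum (-0.30 to 2.88), the Dnmt1 ratio (-2.10 to 2.33), the Dnmt3b ratio (-1.33 to 0.61) and the Tet2 ratio (-0.22 to 0.11). A fitted value near 7 in size comes from a group with 0 counts in the library left, depends on the prior count and is no bound.

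Counts of calls moved as well. Over fits without 1 library, called features ran from 24227 to 60168 in SAFB DKO against WT and from 12552 to 51861 in EZH2 KO against WT, and genes whose exonic features differ from 695 to 2648 and from 1965 to 7235. At a mean of at least 50 counts, where fewer features are tested, called features were 19662 in SAFB DKO against WT and 31848 in SAFB DKO against EZH2 KO, and genes whose exonic features differ 2166 in EZH2 KO against WT and 3136 in SAFB DKO against EZH2 KO. With the 2 knockouts alone, features called in SAFB DKO against EZH2 KO were 46370. Members' calls over the 14 sums ranged from 6 to 11 in SAFB DKO against WT, 5 to 10 in EZH2 KO against WT and 9 to 13 in SAFB DKO against EZH2 KO.

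EZH2 KO and WT share replicate numbers. Deviations of the same-numbered libraries from their group means correlated at 0.0271 and 0.00126 over 193862 features. With 2 EZH2 KO libraries the deviations of that group mirror each other, so these values are not separate checks. Many of the features have low counts, and the values cannot tell whether the numbers pair the samples. With the replicate block, called features in EZH2 KO against WT were 13692 and called ratios 1826. With the replicate block the sign was the other one in EZH2 KO against WT for the Dnmt1 intronic sum -0.71 and the Dnmt1 intronic feature at 20950295 -0.88. Calls of named features were also lost there, with the sign kept. These were Uhrf1 56320207 (-1.67) and 56322049 (-0.63), and Dnmt1 20917899 (-0.62) and 20932060 (-1.51). Also lost were Dnmt3a 3902088 (-1.18), Dnmt3b 153673942 (-1.01) and Dnmt3l 78052692 (-0.92). Among the TET genes they were Tet2 133524807 (1.41), Tet3 83396352 (1.15), Tet3 83376760 and Tet1 62848878. EZH2 KO has the lowest total counts, 7050832 and 8353603, which limits what low intronic features can show there.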
